A study of Mus musculus with 384 samples.

Results

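The cells described here are neutrophils whose granule transcripts lie between those of granule-rich and granule-poor neutrophils. They were selected by measured values. A cell counted as a neutrophil when S100a8, S100a9, Retnlg, Ngp, Camp, Ltf, Mmp8, Mmp9, Csf3r and Cxcr2 together reached 20000 TPM (the share of a cell's transcripts scaled to a fixed total). It was a member when the mean log2(TPM + 1) of 8 granule genes (Camp, Ngp, Ltf, Lcn2, Chi3l3, Cd177, Itgb2l and Mmp8) ran from 5 to below 10.5 and fewer than 5 of 16 proliferation genes were above 0. This rule found 70 members among 285 neutrophils and 326 cells in all. The other neutrophils were 118 granule-high cells, 75 granule-low cells and 22 cycling cells. In the text, member and intermediate cell mean the same.

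Neutrophils are made in bone marrow, where they load their granules in sequence. Azurophil proteins such as myeloperoxidase are transcribed first, in dividing precursors. Specific granule proteins such as lactoferrin (Ltf), cathelicidin (Camp) and neutrophilic granule protein (Ngp) follow, and gelatinase granule proteins such as Mmp9 come late. Transcription of the granule genes then falls as the cell matures and leaves the marrow. Chemoattractant receptors, adhesion molecules and inflammatory mediators mark the mature cell.

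All cells came from the spinal cords of Optn KO mice, and Optn (optineurin) was listed at 0 in every cell. Cells without the knockout were not analysed here, so nothing below measures an effect of the genotype. Sorting used CD45, CD11b and CX3CR1. Cells went 1 per well and were prepared by SmartSeq2, a full-length method without molecular identifiers; the series title calls them microglia. Replicate 1 is plates 1 and 2 and replicate 2 is plates 3 and 4. The labels do not say whether the replicates are separate mice, which cells carry the deletion or how old the mice were. The p-values therefore measure only how far differences between groups of cells varied between these 2 samples, together with a spread shared across genes. This variation may be technical. TPM keeps no sequencing depth, so the number of genes above 0 in a cell stands in for it. Its median was 1506.5 in the members (675 to 1905), 1940 in granule-high cells and 1352 in granule-low cells.

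The share of neutrophils that were intermediate was nearly the same in both replicates. It was 24.6% in replicate 1 (32 of 130 cells, exact 95% binomial interval 17.5% to 32.9%) and 24.5% in replicate 2 (38 of 155 cells, 18.0% to 32.1%). By plate the share was 19.4%, 30.2%, 23.4% and 25.6%. The intervals cover counting error only. No doublet caller was run.

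The members formed a range of values rather than a group set apart by a gap on both sides. Their granule mean ran from 5.04 to 10.47 with a median of 7.57, against a median of 13.14 in granule-high cells and 2.90 in granule-low cells. At the lower border the nearest cells lay at 4.87 and 5.04, and 16 cells lay within 0.5 of it, 7 of them members. At the upper border the nearest cells lay at 10.47 and 10.58, and 7 cells lay within 0.5 of it, 2 of them members. The lower border thus passes through a continuous run of cells, while few cells lie near the upper one.

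**Figure D1:**
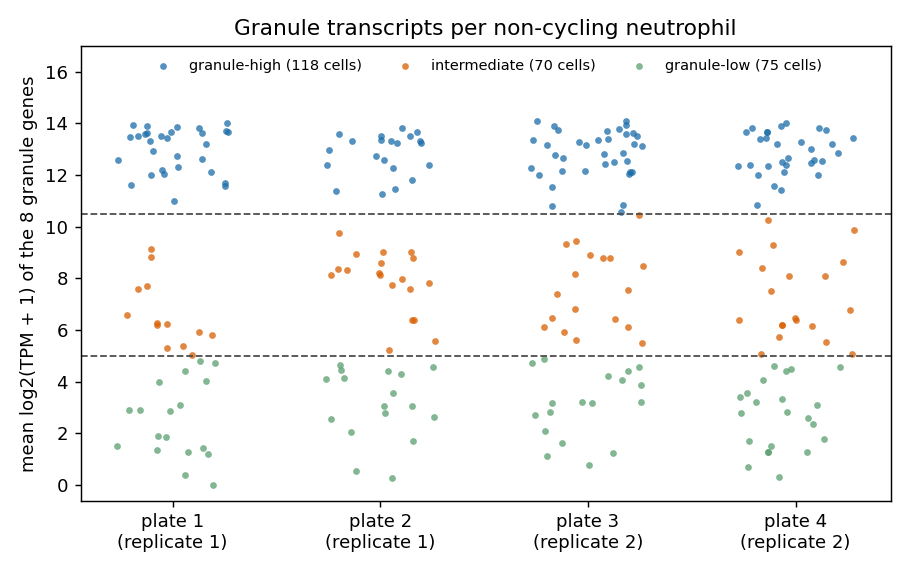
Mean log2(TPM + 1) of the 8 granule genes (vertical axis) in each non-cycling neutrophil, by plate (horizontal axis, points spread sideways). Dashed lines are the borders of the rule at 5 and 10.5, and each plate holds cells of all 3 classes; the members have a median of 7.57.

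The granule genes that chose the members were not reduced alike within them. Their values are a description, since the rule used them. Ngp and Lcn2 (lipocalin 2, which binds bacterial siderophores) were above 0 in 70 of 70 members, Mmp8 (neutrophil collagenase) in 69 and Cd177 (a surface partner of proteinase 3) in 68. Camp was above 0 in 33 members, Ltf in 33, Itgb2l (a beta 2 integrin-like chain) in 34 and Chi3l3 (a chitinase-like protein, also called Ym1) in 12. So 4 genes were detected in nearly every member and 4 were listed at 0 in most or many of them. Since Ngp was above 0 in all members, none could have Camp without Ngp, and 37 members had Ngp and no Camp. Likewise 35 members had Mmp8 and no Itgb2l, and none had the reverse.

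The levels split the same way. Median Ngp was 70622 TPM in granule-high cells and 4518 TPM in the members (5.09 to 127371). Median Lcn2 was 27729 TPM in granule-high cells, 11663 TPM in the members and 1111 TPM in granule-low cells. Median Mmp8 was 10557, 7877 and 1910 TPM in the same order, so that of the 8 genes Mmp8 came closest to its granule-high level. Median Ltf was 25893 TPM in granule-high cells and 0 in the members, where the highest value was 8182 TPM. Camp had a median of 23272 TPM in granule-high cells and 0 in the members, although 1 member reached 73121 TPM. Together the 8 genes took a median of 3.10% of all TPM in a member, 18.2% in a granule-high cell and 0.375% in a granule-low cell.

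Along the granule mean, the genes were listed at 0 from different points. The mean is made of these same genes, so detection along it is partly set by the banding. It is a description and gives no order in time. Of the 11 members at 9 or above, Camp was above 0 in 11, Itgb2l in 8, Ltf in 7 and Chi3l3 in 5. Of the 27 members from 7 to under 9, Itgb2l was above 0 in 24 and Camp in 17, but Ltf in 11 and Chi3l3 in 2. Of the 32 members from 5 to under 7, Itgb2l was above 0 in 2 and Camp in 5, while Ngp, Lcn2 and Mmp8 were above 0 in all 32. Chi3l3 was thus detected in fewer members than Camp at 7 and above, and Itgb2l in most members above 7 and almost none below. The plates filled these bands unequally: 9 of the 13 members of plate 1 lay under 7, against 4 of the 19 of plate 2.

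**Figure D2:**
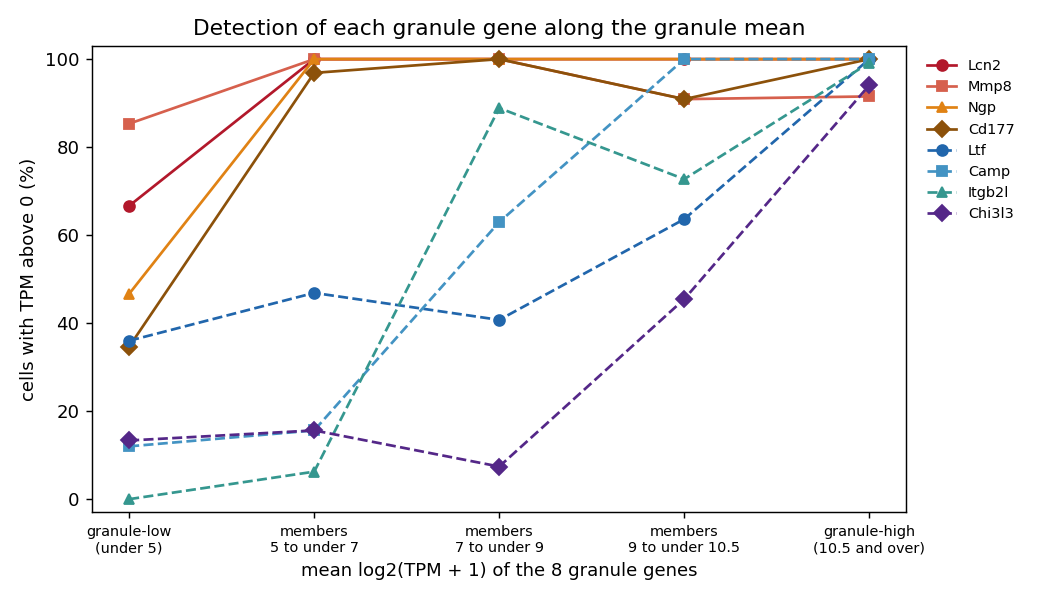
Share of cells with TPM above 0 (vertical axis, percent) for each of the 8 granule genes in granule-low cells, in members in 3 bands of the granule mean, and in granule-high cells (horizontal axis). Ngp, Lcn2, Mmp8 and Cd177 (solid lines) stay above 90% in the members, and Itgb2l goes from 2 of 32 members in the lowest band to 24 of 27 in the next. The bands are cut on the mean of these same genes.

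Upstream sequences are shown for Ngp, above 0 in every member, for Camp, listed at 0 in 37 of the 70, and for Retnlg, the most abundant marker of the members. They are the 250 bases before the start in the RefSeq promoter table (GRCm38.p6), read 5′ to 3′ on the gene's strand. Capitals mark matches to TTGCNNAA on either strand, a core of the sites that C/EBP factors bind; these factors drive granule genes. The Ngp window is chr9:110419558-110419807, plus strand, the Camp window chr9:109849457-109849706, minus strand, and the Retnlg window chr16:48872358-48872607, plus strand.
Ngp: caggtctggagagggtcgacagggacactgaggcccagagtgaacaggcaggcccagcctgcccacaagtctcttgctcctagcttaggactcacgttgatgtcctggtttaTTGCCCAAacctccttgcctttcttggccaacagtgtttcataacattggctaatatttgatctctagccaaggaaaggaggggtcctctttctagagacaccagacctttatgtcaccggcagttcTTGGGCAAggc
Camp: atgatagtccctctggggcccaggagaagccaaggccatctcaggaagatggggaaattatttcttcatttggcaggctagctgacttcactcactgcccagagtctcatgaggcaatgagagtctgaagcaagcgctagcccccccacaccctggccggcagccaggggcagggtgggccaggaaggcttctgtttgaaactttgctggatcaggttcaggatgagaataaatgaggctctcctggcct
Retnlg: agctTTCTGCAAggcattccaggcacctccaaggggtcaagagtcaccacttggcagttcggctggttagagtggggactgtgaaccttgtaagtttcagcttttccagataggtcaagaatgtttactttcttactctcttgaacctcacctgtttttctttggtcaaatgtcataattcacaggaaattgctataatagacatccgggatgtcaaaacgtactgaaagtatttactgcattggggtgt
Ngp had 2 matches, Retnlg had 1 and Camp had 0. Of the 8 granule genes, Ngp, Ltf, Lcn2 and Mmp8 had a match, and of all 32851 windows of this length 9.56% had. Of the 4 genes detected in nearly every member, Cd177 had none, and of the other 4, Ltf had one. A match is a description of these letters and not a site.

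Retnlg and Mmp9 also belong to the rule, and both were highest in the members. Retnlg encodes a resistin-like secreted protein of myeloid cells. Its mean was 42759 TPM in the members of replicate 1 and 43106 TPM in those of replicate 2. In granule-high cells the replicate means were 16034 and 16646 TPM, and in granule-low cells 18108 and 11826 TPM. No plate mean of another class reached the lowest plate mean of the members, 38283 TPM. Retnlg was flat within the members, with medians of 40577, 39283 and 41512 TPM in the bands from 5, 7 and 9. It was the third most abundant transcript of the members, after S100a9 and S100a8.

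Mmp9, the gelatinase of late granules, differed less. Its replicate means were 5635 and 5178 TPM in the members, 4149 and 4602 TPM in granule-high cells, and 3666 and 3260 TPM in granule-low cells. It was above 0 in 70 of 70 members, 117 of 118 granule-high cells and 75 of 75 granule-low cells. Across the 70 members Spearman's rho of its level with the number of genes detected was 0.41, a description. By plate it was 0.32, 0.0097, 0.56 and 0.51 on plates 1 to 4, near 0 on plate 2.

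Cdc42ep2 and Ctse, the other markers given for these cells, were sparse. Cdc42ep2 encodes an effector of the GTPase CDC42, which organises actin. It was above 0 in 22 of 70 members, 23 of 118 granule-high cells and 9 of 75 granule-low cells. Its replicate means were 298 and 266 TPM in the members, 86.5 and 64.5 TPM in granule-high cells and 136 and 115 TPM in granule-low cells. Each of its 4 plate means in the members lay above those of both other classes. Ctse, an aspartic protease (cathepsin E), was above 0 in 37 members, 48 of 118 granule-high cells and 30 of 75 granule-low cells. Its median in the members was 1.965 TPM, so its mean came from a minority of cells. The replicate means of Ctse were 198 and 126 TPM, against 84.1 and 71.2 TPM and 70.5 and 105 TPM. Its plate means overlapped: plate 3 had 58.3 TPM in the members and 162 TPM in granule-low cells. Within plates, Retnlg, Mmp9 and Cdc42ep2 were thus highest in the members in all 4, and Ctse in 3. The markers were chosen from measured values and are given with no test.

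**Figure D3:**
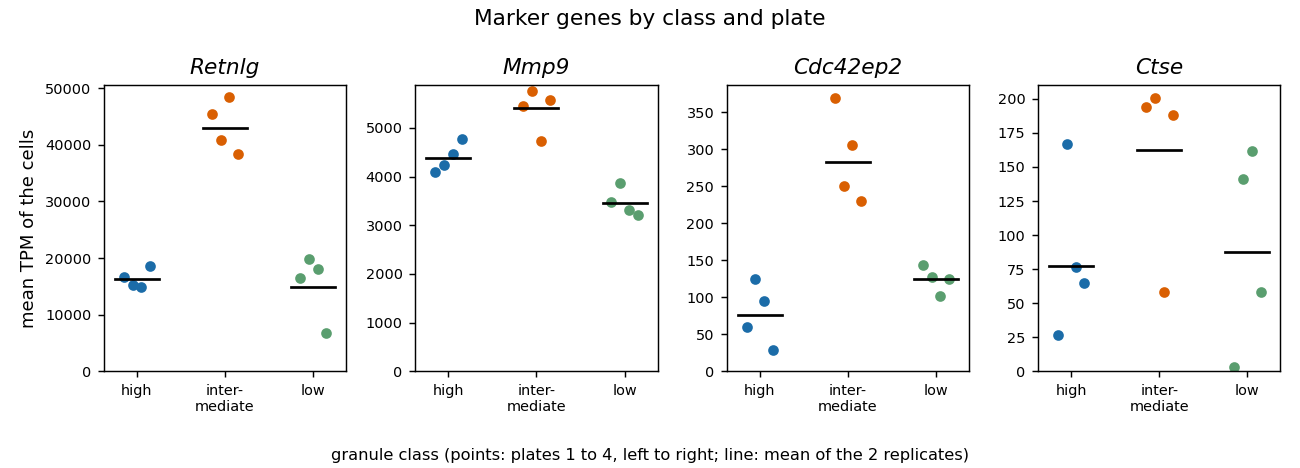
Mean TPM of the cells (vertical axes, starting at 0) for the marker genes in granule-high, intermediate and granule-low neutrophils; each point is a plate and each line the mean of the 2 replicates. The members are highest for Retnlg, with replicate means of 42759 and 43106 TPM, while the plates overlap for Ctse.

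Markers of other cells were mostly at 0 in the members. Of 13 microglia markers 11 were at 0 in all members, among them P2ry12, Tmem119 and Trem2, and 0 members had 3 or more. All markers of basophils and mast cells and of astrocytes were at 0. Of the eosinophil list Il5ra was above 0 in 17 members, of the oligodendrocyte list Mbp in 17, and of the dendritic cell list Xcr1 in 13. The highest sum in a member was 650.4 TPM for the eosinophil list, 466 TPM for the oligodendrocyte list and 5.07 TPM for the dendritic cell list. It was 5537 TPM for border macrophages, where Lyve1 was above 0 in 2 members, and 6943 TPM for the erythroid list, in 1 member. Of 10 monocyte markers Ms4a4c and S100a4 were at 0 and Ly6c2 was above 0 in 64 members. In 7 members 3 or more monocyte markers were above 0, and the summed monocyte list had a median of 2771 TPM in granule-high cells, 1745 TPM in the members (0 to 8913) and 117 TPM in granule-low cells. Its part in the results below was not tested, but the counts are given again without such cells. Proliferation genes were few by the rule, which admits only cells with fewer than 5 of the 16 above 0. Within that limit, 62 members had at most 2 above 0.

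Genes that the rule did not use were compared between the classes as log2(mean TPM + 1) of the cells of a class and replicate, 6 averages in all, with limma and the replicate as a block. A gene passed at a Benjamini-Hochberg adjusted p under 0.05. The classes were cut on the same cells, so these tests say how other genes differed between cells so divided and not that the classes are separate types. Both comparisons below share the members' averages, so their calls are not independent.

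The first comparison asked how the members differed from the granule-high cells. Some inflammatory and immediate early transcripts, such as Il1b, Ccl6 and Dusp1, and both ferritin chains were higher in the members. Some late granule transcripts, such as Anxa1, were lower. In all, 92 of 3722 genes tested (2.47%) were higher and 21 (0.564%) lower, and 89 of the 92 and all 21 had the same sign in every plate. The split leaned the other way when each cell's log2 value was averaged, with 112 higher and 596 lower, an average that weighs how many cells have a gene. Leaving out a plate left 31 higher and 2 lower without plate 1, 20 and 1 without plate 2, 31 and 4 without plate 3, and 26 and 4 without plate 4. Calls fell to 0 when all 12338 genes were tested and when limma ran without trend and robust options. Without cells holding 3 or more markers of another cell type, 77 were higher and 16 lower.

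Ccl6, a CC chemokine of myeloid cells, had replicate means of 4166 and 4291 TPM in the members and 164 and 420 TPM in granule-high cells. It was above 0 in 91.4% of members and 35.6% of granule-high cells, and its log2 difference was 4.01 ± 0.37 (SE, limma adjusted p = 0.0077). In granule-low cells it reached 7013 and 5627 TPM. Clec7a, the beta-glucan receptor dectin-1, had 501 and 312 TPM in the members, 2.83 and 14.9 TPM in granule-high cells, and 822 and 1056 TPM in granule-low cells. Pla2g7, which hydrolyses platelet-activating factor, had 352 and 467 TPM, against 7.50 and 6.17 TPM in granule-high cells and 1458 and 1600.0 TPM in granule-low cells. The replicate means of the 3 classes did not overlap for these genes, and in each the granule-low cells were higher still.

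Of the other strongest increases, several rested on a minority of cells. Vnn3 (a pantetheinase) was above 0 in 24.3% of members, with a log2 difference of 5.91, and Tspan13 (a tetraspanin) in 31.4%, with 5.16. St3gal6, a sialyltransferase, was above 0 in 8.57% and Ifitm1, an interferon-induced membrane protein, in 25.7%. LOC100038947, Stfa2l1 and Hist1h2bc also ranked here, with 5.24, 4.80 and 3.84, but belong to families of close copies among which reads may have been divided, so their values are uncertain. Their limma adjusted p values lay between 0.0015 and 0.030, as did those of the genes of the paragraph before.

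Among inflammatory genes, 5 of 18 tested were higher (Il1b, Ccl6, Ptgs2, Trem1 and Clec4d) and 0 lower. Of all genes tested, 2.47% were higher, and the median log2 difference was 0.83 in the list against 0.08 over all genes. Il1b, the interleukin-1 beta precursor, had 4828 and 4917 TPM in the members and 548 and 441 TPM in granule-high cells. Its log2 difference was 3.31 ± 0.17 (SE, limma adjusted p = 0.0015). Ptgs2, the inducible cyclooxygenase, had 126 and 127 TPM in the members against 12.3 and 21.8 TPM. Trem1, an amplifying receptor of myeloid cells, had 1857 and 1682 TPM against 713 and 771 TPM, and Clec4d, a C-type lectin, 1327 and 993 TPM against 146 and 132 TPM.

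Of 13 immediate early genes, transcribed within minutes of a stimulus, 5 were higher (Fos, Junb, Dusp1, Btg1 and Btg2) and 0 lower, with a median of 1.33. The share higher over all genes tested was 2.47%. Dusp1, a phosphatase that switches off MAP kinases, had 4133 and 4604 TPM in the members and 855 and 1199 TPM in granule-high cells, a log2 difference of 2.11 ± 0.12 (SE, limma adjusted p = 0.0015). Junb, an AP-1 subunit, had 5757 and 5117 TPM against 2162 and 2301 TPM.

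Of 17 adhesion and migration genes tested, 3 were higher and 0 lower. They included Selplg (the P-selectin ligand), with 1210 and 1479 TPM in the members against 487 and 411 TPM. They also included Cdc42ep2, which was picked as a marker of these cells from measured values, so its call is a description only. Of 7 ferritin and iron handling genes, Fth1 and Ftl1, the ferritin chains, were higher. Fth1 had 10397 and 7179 TPM against 3570 and 3158 TPM, and Ftl1 had 9540 and 7974 TPM against 3758 and 3613 TPM. Of 16 receptors Ccr1 alone passed, with 623 and 876 TPM against 189 and 276 TPM. In other lists 1 gene each was higher: H2-D1 of 9 MHC class I and antigen presentation genes, Map1lc3b of 12 autophagy and optineurin pathway genes, and Ifitm1 of 8 interferon-induced genes. Over all genes tested, 92 of 3722 (2.47%) were higher, and 1 call does not mark a list as a whole. Map1lc3b, which encodes an LC3 protein of the autophagosome membrane, had 1054 and 895 TPM against 353 and 350.1 TPM.

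Among 16 specific and late granule genes outside the rule, 4 were lower in the members than in granule-high cells and 1 was higher, with a median of -0.18. Of all genes tested, 0.564% were lower and 2.47% higher. The list lies close to the genes of the rule. Anxa1 (annexin A1, held in gelatinase granules) had 4579 and 5157 TPM in the members against 12023 and 12293 TPM, a log2 difference of -1.32 ± 0.10 (SE, limma adjusted p = 0.0047). Cybb, the catalytic chain of the NADPH oxidase, had 293 and 211 TPM against 1025 and 992 TPM. Serpinb1a, an inhibitor of neutrophil elastase, had 74.0 and 140 TPM against 710 and 676 TPM. Lyz2 (lysozyme) differed little, with 28528 and 28067 TPM against 34818 and 35245 TPM. Slpi, another protease inhibitor, was the one that was higher, with 2246 and 1938 TPM against 820 and 893 TPM.

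Of 5 leukotriene and prostaglandin genes, Ptgs2 was higher and Lta4h lower. Lta4h makes leukotriene B4, a neutrophil chemoattractant. It had 72.5 and 46.0 TPM in the members against 699 and 745 TPM, was above 0 in 18.6% of members and 75.4% of granule-high cells, and differed by -3.62 ± 0.59 (SE, limma adjusted p = 0.032). Alox5 and Alox5ap, which act before it in the same pathway, had differences of 0.38 and 0.39 and did not pass. Outside the lists, Zmpste24, Orm1 and Cd81 were lower. Zmpste24, a protease that trims prelamin A, had 9.71 and 0.0387 TPM against 229 and 264 TPM, and was above 0 in 4.29% of members. Inhba, Cct2, Mlst8, Rpl12, Ica1 and Slc39a11 also passed but were listed at 0 in all members, so no fold is given. Inhba, which encodes an activin subunit, was above 0 in 38.1% of granule-high cells and in 0 of 70 members; by counting error alone, that allows up to 4.29% of members with a value above 0, and a 0 does not show that the gene is unexpressed.

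The second comparison asked how the members differed from the granule-low cells. The members had less Il1b and less of 7 of the 13 immediate early transcripts tested, and more Anxa1, Lyz2, Mgst1 and Ifitm6, of the late granule list. Of 3722 genes, 15 (0.403%) were higher and 15 (0.403%) lower in the members, 14 of each with the same sign in every plate. Rescaling TPM without the genes of the rule moved the split to 31 higher and 12 lower. Leaving out a plate left 6 higher and 6 lower without plate 1, 0 and 0 without plate 2, 0 and 0 without plate 3, and 6 and 4 without plate 4. Without plates 2 and 3 in turn, 462 and 481 genes had an unadjusted p under 0.05. Without cells holding 3 or more markers of another cell type, 19 were higher and 17 lower.

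Il1b was 17452 and 22177 TPM in granule-low cells, against 4828 and 4917 TPM in the members, a log2 difference of -2.01 ± 0.17 (SE, limma adjusted p = 0.012). The members thus lay between the classes and overlapped with neither in replicate means. Il1b was above 0 in 40 of 118 granule-high cells, 51 of 70 members and 74 of 75 granule-low cells. Within the members it was above 0 in 27 of 32 under a granule mean of 7, with a median of 4996 TPM. From 7 to under 9 it was above 0 in 16 of 27, with a median of 179.9 TPM, and above that in 8 of 11, with 1822 TPM. By detection and median it was thus lowest in the middle band. The band means were 7545, 2696 and 2460 TPM in the same order, lowest at 9 and above. Csf1r, the receptor of the macrophage growth factor, was above 0 in 16 granule-high cells, 23 members and 37 granule-low cells.

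Of the 13 immediate early genes, 7 were lower in the members than in granule-low cells (Fos, Junb, Egr1, Atf3, Dusp1, Btg2 and Nr4a1) and 0 higher. The share lower over all genes tested was 0.403%. The median of the list was -1.44 against -0.22 over all genes. Dusp1 had 10387 and 13877 TPM in granule-low cells against 4133 and 4604 TPM, a difference of -1.46 ± 0.12 (SE, limma adjusted p = 0.012). Atf3, a stress-induced transcription factor, had 31.1 and 7.39 TPM in the members, 1064 and 735 TPM in granule-low cells, and was listed at 0 in granule-high cells. It was above 0 in only 4.29% of members. Egr1 had 33.4 and 13.3 TPM against 422 and 1058 TPM, and was above 0 in 8.57% of members. Fos, Junb, Dusp1 and Btg2 passed in both comparisons, so for these 4 the members lay between the other classes with each step past the test; these steps share the members' averages.

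**Figure D4:**
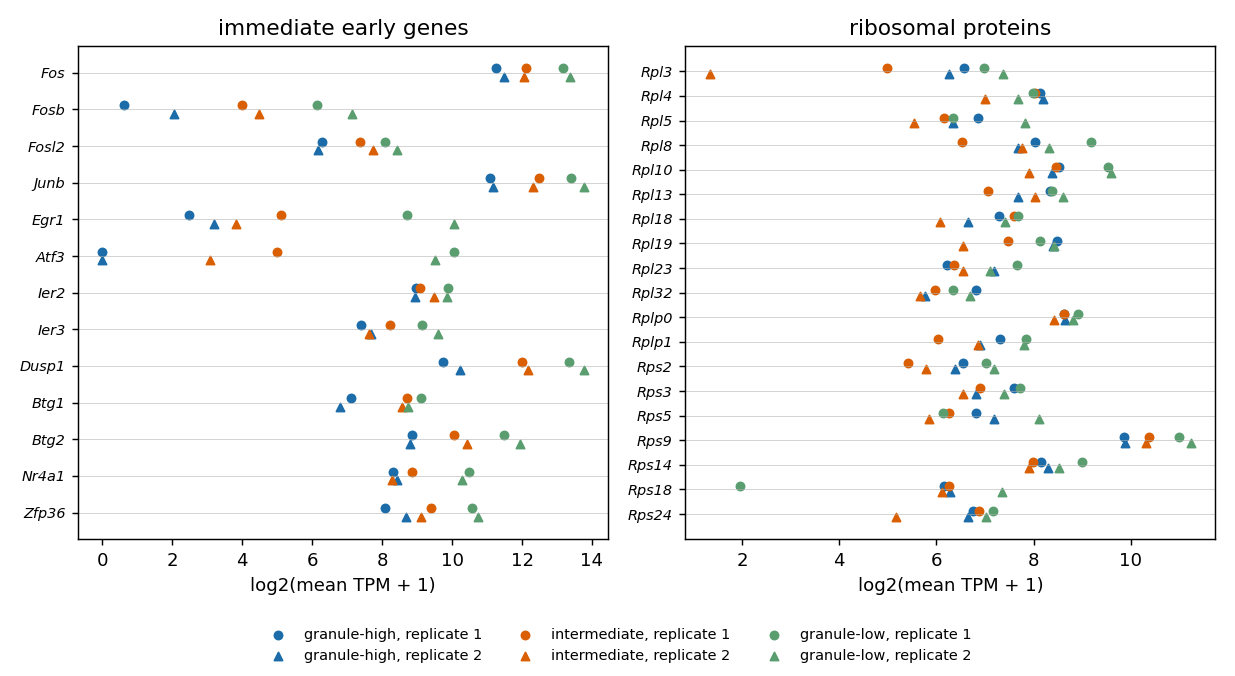
log2(mean TPM + 1) (horizontal axes) of the immediate early genes and of 19 ribosomal protein genes (rows), by class and replicate. The members (orange) lie between the other classes for Fos, Junb, Dusp1 and Btg2, and below both for 10 of the 19 ribosomal protein genes in both replicates.

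Other genes lower in the members than in granule-low cells included Tgif1, Rbm7, P4hb and Niacr1, and Rpl12, listed at 0 in the members. Niacr1, the niacin receptor also called Hcar2, had 1281 and 1020.0 TPM against 3369 and 3682 TPM. Tgif1, a transcriptional repressor of TGF-beta targets, had 3.02 and 0 TPM against 296 and 260.0 TPM. It was above 0 in 2.86% of members and 29.3% of granule-low cells. P4hb, the protein disulfide isomerase, had 13.99 and 34.8 TPM in the members against 215 and 205 TPM in granule-low cells and 196 and 210 TPM in granule-high cells, and was lower than in each class (limma adjusted p = 0.0498 and 0.027, in that order). The call for P4hb against granule-low cells was lost in most alternatives, among them leaving out any 1 plate, with limma adjusted p between 0.052 and 0.47 where it was lost. In the ferritin list Ftl1 was lower, with 14018 and 15132 TPM in granule-low cells. No gene of the adhesion, receptor, interferon, MHC class I or autophagy lists passed against granule-low cells.

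On the other side, 4 of the 16 granule genes outside the rule (Mgst1, Anxa1, Ifitm6 and Lyz2) were higher in the members than in granule-low cells. None was lower, and the median was 0.96. The share higher over all genes tested was 0.403%. Ifitm6, an interferon-induced transmembrane family member of myeloid cells, had 1203 and 1804 TPM in the members against 134 and 226 TPM, a difference of 3.07 ± 0.25 (SE, limma adjusted p = 0.012). It was above 0 in 99.2% of granule-high cells, 72.9% of members and 18 of 75 granule-low cells, and within the members in 19 of 32 under 7 and 10 of 11 at 9 or above. Mgst1, a microsomal glutathione transferase, had 1899 and 2061 TPM in the members, 815 and 641 TPM in granule-low cells, and 1714 and 1746 TPM in granule-high cells. Adpgk, an ADP-dependent glucokinase, had 1239 and 1137 TPM against 205 and 104 TPM. Lims1, an adaptor of integrin adhesions, had 178 and 168 TPM against 27.3 and 17.03 TPM.

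Hsd11b1, which regenerates active glucocorticoid, had 561 and 228 TPM in the members and 52.2 and 37.1 TPM in granule-low cells. Tinagl1 had 361 and 359 TPM against 66.5 and 30.1 TPM, and AA467197 195 and 372 TPM against 13.7 and 42.9 TPM. AA467197 rested on plates 1 and 4, with log2 differences of 7.98 and 9.26, against 2.43 and 0.10 in plates 2 and 3. Ly6a, of a family with close copies, had 176 and 150 TPM in the members, 377 and 352 TPM in granule-high cells and 21.2 and 8.30 TPM in granule-low cells. Tspan32, Ear2 and Galns passed but were listed at 0 in granule-low cells, so no fold is given. Tspan32 was above 0 in 14.3% of members and Ear2 in only 5.71%.

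**Figure D5:**
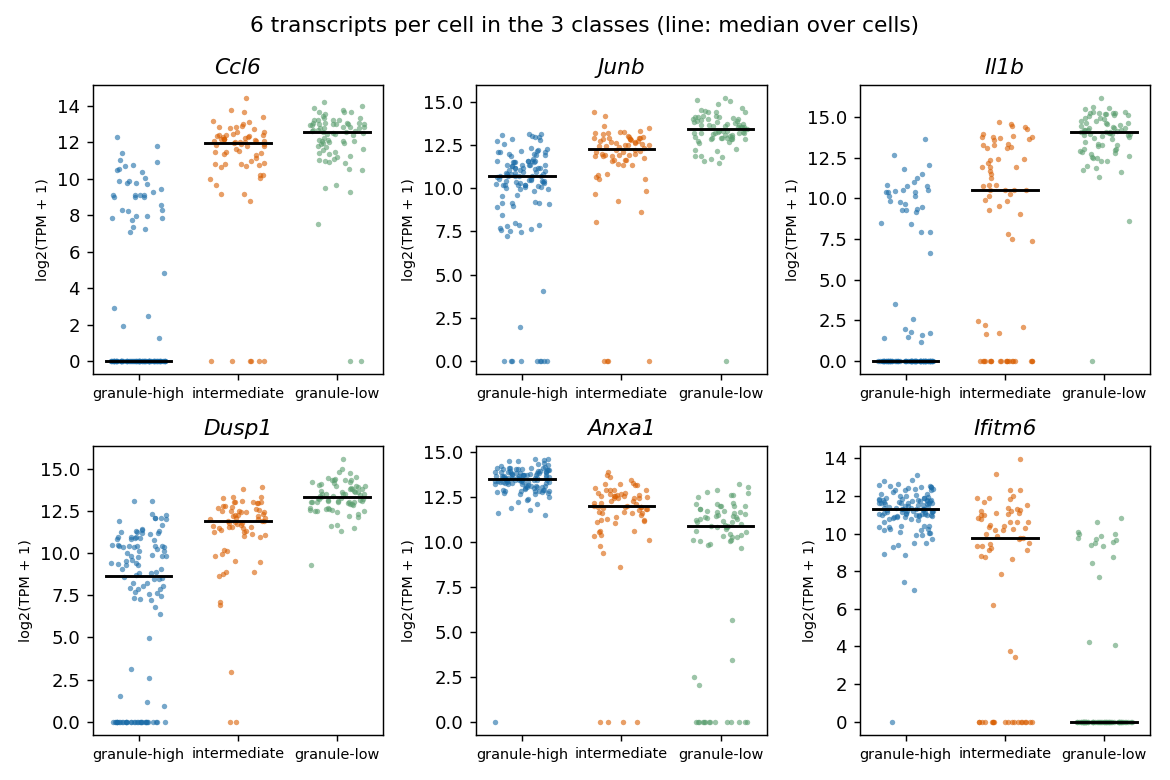
log2(TPM + 1) per cell (vertical axes) of Ccl6, Junb, Il1b, Dusp1, Anxa1 and Ifitm6 in the 3 classes (horizontal axes), with the median over cells as a line. The members lie between the other classes for these genes, with cells at 0 as well as at the level of either side; Il1b was above 0 in 51 of 70 members.

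The third comparison asked whether any gene set the members apart from both other classes, as the difference from the mean of both. With limma, 0 of 3722 genes (0%) were higher and 0 (0%) lower, with 203 and 229 at an unadjusted p under 0.05 and a smallest adjusted p of 0.16. With the mean of each cell's log2 value, 3 were higher and 7 lower. As a description, 60 genes (1.61%) lay above both other classes in all 4 plates and 75 (2.02%) below both. How many genes would do so by chance was not worked out, and none of the 60 or the 75 passed in this comparison. The largest values among the 60, a choice made after seeing them, belonged to S100a11, a calcium-binding S100 protein. It had 8065 and 9618 TPM in the members, 5172 and 5166 TPM in granule-high cells and 7816 and 6692 TPM in granule-low cells. On plate 1 it was barely above granule-low cells, with 7489 against 7464 TPM. Prr13 had 2001 and 2344 TPM, against 967 and 1362 TPM and 1389 and 1059.9 TPM. Pgd, of the pentose phosphate pathway that supplies NADPH, had 1804 and 1570 TPM, against 973 and 1176 TPM and 1095 and 1085 TPM. Plp2 and R3hdm4 came next by value. Padi4, which citrullinates histones in extracellular trap formation, stood after them. It had 1197 and 1053 TPM, against 806 and 829.6 TPM and 829.0 and 678 TPM.

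Of the genes with the smallest p in this comparison with the mean of both, none passed. Gm9733 had 402 and 355 TPM in the members, 59.0 and 52.7 TPM in granule-high cells and 178 and 116 TPM in granule-low cells. Srgn, the granule proteoglycan serglycin, and Lyz2 had log2 differences of 0.68 and 0.29 from the mean of both, since each lay nearer to its higher neighbour. On the lower side P4hb, which passed against each class alone, differed by -3.16. Ndufa2, a respiratory chain subunit, had 5.91 and 8.55 TPM against 50.8 and 69.3 TPM and 71.3 and 92.6 TPM. It was above 0 in 2.86% of members.

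None of the 20 ribosomal protein genes of the list passed in any comparison, yet many had their lowest mean in the members. Of the 20, 11 (55.0%) lay below both other classes in both replicates, against 12.5% of all genes, and 0 lay above both. Their median difference from the mean of both was -0.76, against 0.01 over all genes, and ranged from -0.98 to -0.53 over the settings tried. Rps2 had 41.5 and 54.0 TPM in the members, 93.0 and 82.1 TPM in granule-high cells and 128 and 144 TPM in granule-low cells, and Rpl19 had 177 and 93.0 TPM, against 357 and 337 TPM and 280 and 344 TPM. Rps9, the most abundant, lay between the classes. For some genes the replicates disagreed: Rpl3 had 30.4 and 1.51 TPM in the members, and Rps18 had 2.87 and 161 TPM in granule-low cells. Rpl12, outside the list, passed against each class as described. Of 18 respiratory chain genes, 6 (33.3%) lay below both in both replicates and 0 passed. The number of genes detected per cell lay between those of the other classes, at 1506.5.

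The remaining lists held no gene that passed in any comparison. In the 10 transcription factors of granulopoiesis the medians were 0.79 against granule-high and -0.36 against granule-low cells. Cebpe, which drives specific granule genes, had 2.004 and 3.20 TPM in the members against 57.9 and 55.9 TPM in granule-high cells, and did not pass (limma adjusted p = 0.054). It was above 0 in 0 of 32 members under a granule mean of 7, 1 of 27 from 7 to under 9 and 2 of 11 above. The 16 glycolysis genes had medians of -0.25 and 0.04, and the 7 apoptosis and survival genes 0.13 and -0.24. Of 8 azurophil granule genes 1 was frequent enough to be tested and it did not pass. The receptors Csf3r, for granulocyte colony-stimulating factor, and Cxcr2, for CXC chemokines, belong to the rule. Median Csf3r was 214 TPM in granule-high cells, 923 TPM in the members and 2975 TPM in granule-low cells. Within the members it was 1140, 685 and 595 TPM in the bands from 5, 7 and 9. Median Cxcr2 was 512, 1666 and 1937 TPM in the 3 classes, and 1943, 1592 and 806 TPM in these bands. For Cxcr2 the bands from 5 and 7 thus lay nearer to the granule-low cells, and the band from 9 nearer to the granule-high cells.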

How the data were processed

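TPM was measured in individual cells: the authors deposited 1 table of TPM for 23420 genes and 326 cells, and 58 labelled cells were not analysed here. The submitters' processing notes name RSEM and the mm10 build. For versions, aligner and annotation: not given in the sources used here. TPM of each cell sums to 1000000, so abundant genes lower the share of others, and a 0 can be a failed estimate. The members and the gene lists were chosen with earlier results of these data known.

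Cells were classed by the rule in the report. TPM was averaged over the cells of each class and replicate, and log2(mean TPM + 1) was fitted with limma 3.58.1 in R 4.3.3 (replicate as block, robust fit with a variance trend, 2 residual degrees of freedom plus a median of 4.38 prior degrees), Benjamini-Hochberg at 0.05. Fold changes on this scale understate those of low genes. Genes with mean TPM of at least 5 and above 0 in 10% of the cells entered, except the 30 genes of the rule. The script was tested on simulated data. The replicate number marks shared plates, which is why it is a block. Named genes were the 10 with the largest difference per direction among those that passed, had the same sign in all plates and reached 20 TPM in a class; for the comparison with both classes, the 5 smallest p. Further genes come from 16 lists. Alternatives were 18 planned settings and 1 added after seeing the data (without cells with 3 or more markers of another cell type). Chil3 is listed as Chi3l3. Some genes of the lists are counted but not reported here.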

Additional observations from a re-analysis of the deposited data

How the results depend on the processing

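Counts are given as higher and lower against granule-high cells, then higher and lower against granule-low cells; with all cells they were 92 and 21, then 15 and 15. They were 0 throughout with no filter on low values and with limma without trend and robust options. A pseudocount of 0.1 gave 71 calls against granule-high cells, 7 of them lower, then 2 and 3. A pseudocount of 10 gave 172 calls, 54 of them lower, then 26 and 40. The mean of log2(TPM + 1) of the cells gave 708 calls, 596 of them lower, then 68 and 44. It gave 3 higher and 7 lower against the mean of both classes. Without the replicate block there were 144 calls, 33 of them lower, then 27 and 28, and 1 lower against the mean of both. Averages per plate gave 166 and 60, then 51 and 51. Narrower borders (6 to 9.5) gave 54 and 10, then 4 and 7. A neutrophil sum of at least 50000 TPM gave 95 calls against granule-high cells, then 3 and 2 against granule-low cells. Cells with 1000 to 3000 genes gave 153 calls against granule-high and 32 against granule-low cells. TPM rescaled without the genes of the rule gave 83 calls against granule-high cells, 60 of them higher, and 43 against granule-low cells, 31 of them higher. Without cells rich in Rn45s there were 114 calls against granule-high cells and 19 against granule-low cells, 9 of the latter higher. Leaving out each plate in turn gave 20 to 31 and 1 to 4, then 0 to 6 and 0 to 6. With 1 replicate there are no residual degrees of freedom and no test. The causes were not tested.

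The share of neutrophils that are intermediate was 24.6% and moved to 18.2% with narrower borders, 25.8% with the higher neutrophil sum, 23.5% in cells with 1000 to 3000 genes, 24.7% without cells rich in Rn45s and 22.973% to 26.1% without each plate. No difference of a named gene changed sign under these settings, but their sizes and calls were less stable. Of 50 named differences, 20 were rated as shifted without replicate 1 and 20 without replicate 2. Between 26 and 34 were rated as weaker when 1 plate was left out. TPM keeps no depth, so what depth limits is unknown.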
